A study of Cavia porcellus with 24 samples.

Results

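Tshz1 (teashirt zinc finger homeobox 1, Ensembl identifier ENSCPOG00000009072) was followed animal by animal in endothelial RNA from guinea pig carotid arteries, as 1 gene of the 18149 in the deposited table. Its mRNA was lowest in PC-H, the offspring of fully fed dams that ate high fat chow, where the mean was 1044 ± 88.0 normalized counts (SD, n = 3) against 1866 ± 155 in the control-fed PC-C (n = 3). In the other 3 pairs of diet groups the control and high fat animals overlapped. The gene was chosen by its measured values in the PC-C vs PC-H contrast, since the list that pairs it with its name is the study's list for that contrast, so the difference between those groups is described here without a test.

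Tshz1 encodes a nuclear protein with several zinc fingers and a homeobox, related to the teashirt protein that patterns the fruit fly trunk. Teashirt proteins bind DNA and act mainly as repressors of transcription, together with corepressors. In mice the gene is known for its part in forming the middle ear, the soft palate and the interneurons of the olfactory bulb. Tshz2 and Tshz3 are its relatives in mammals, and the sources used here did not pair an identifier with either of them, nor give a sequence or a position for Tshz1.

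The study asked how a dam's food ration and an animal's own diet affect endothelial transcription in F1 and F2 offspring. All 24 animals were Hartley guinea pigs killed at 20 weeks, 3 to a group, and each gave 1 library. PC stands for F0 dams fed 100% of the ad libitum ration and PR for dams held to 70% until about mid gestation and 90% afterwards. The last letter gives the chow that the animal itself ate for 12 weeks from 8 weeks of age, C for control chow with 13% of energy from fat and H for high fat chow with 38% and added cholesterol and fructose.

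PC-C, PC-H, PR-C and PR-H are F1 animals. The F2 groups are PC-C-C and PR-C-C on control chow and PC-C-H and PR-C-H on high fat chow, and their F1 mothers ate control chow and were mated with unrelated males. PC-C and PR-H held males only, and the other groups 1 female each among the animals tested. The labels do not give the litter, so p-values measure the spread between these animals, some of which may be siblings. The study lists fewer F1 mothers of the PC line than there are PC-C-C animals, so animals of PC-C-C share a mother, and p-values of comparisons with the F2 PC groups may be too small. The paper also states that diets were assigned so as to keep siblings apart. Siblings may thus lie across a pair of diet groups, and unpaired p-values of diet comparisons may then be too large. RNA was collected by flushing the rinsed vessel with TRIzol. The paper reports its own test of vascular markers, which it reads as enrichment of endothelial mRNA. Here 0 of 9 endothelial and 0 of 6 smooth muscle markers listed could be paired with an identifier, so the labelled cell type was not checked again. In such bulk samples fewer cells of a type and less RNA per cell cannot be told apart.

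Each library held between 14061522 and 31148123 reads on genes, with a median of 25618572, of which 851 to 2633 fell on Tshz1. That depth gives a counting error of 1.95% to 3.43% of the Tshz1 value in an animal, for counting alone and with reads that carry no molecular identifiers. A normalized count is the number of reads divided by the size factor of the library, and log2 differences are of the normalized count plus 1. PC-C-H animal 51, which is absent from the study's animal list, correlated least with the other libraries (median r 0.75 against 0.898 to 0.962) and was left out of the tests. A set of 6 libraries also stood apart from the other 18 in the genes that separate PR-C from PR-C-C, namely all 3 of PR-C-C, PC-C-C animals 54 and 55, and animal 51. Since those genes were chosen by that contrast, the places of PR-C-C and PR-C follow from the choice. Only the places of the other groups are an observation.

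In PC-C the normalized count of Tshz1 was 1687 in animal 13, 1960 in animal 27 and 1952 in animal 28. In PC-H it was 942 in animal 11, 1100.3 in animal 21 and 1088 in animal 34. Every high fat animal of this pair was below every control animal, and the high fat values lay close together. The log2 difference was −0.84, a mean 1.79-fold lower, and 12.5% of the 13224 genes tested had no overlap between these groups in either direction. Without any 1 of the 6 animals the difference ranged from −0.91 to −0.77. One of the high fat animals, number 34, is noted in the study's list as having had a mix of diets, and its Tshz1 value lay between those of the other two.

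Scaled by the library total instead of the size factor, Tshz1 stood at 38.8 to 45.4 CPM in PC-H and at 74.2 to 83.7 CPM in PC-C, so these groups did not overlap on that scale either. The 3 PC-H libraries had 1058, 1091 and 1204 reads on the gene, and the PC-C libraries 1645, 2033 and 2076.

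**Figure D1:**
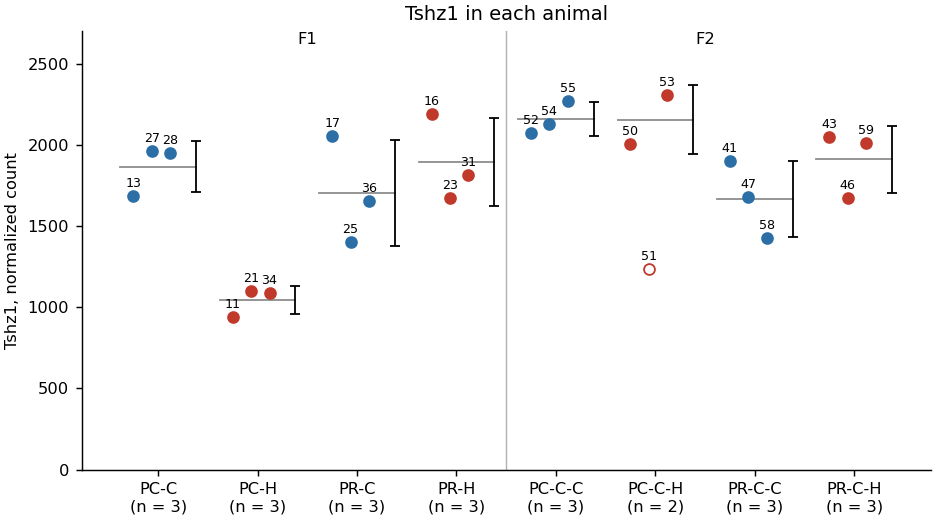
Normalized count of Tshz1 in each animal (points, labelled with the animal's number) by group, with control chow in blue and high fat chow in red. Horizontal lines are group means and bars are 1 SD of the animals tested, and the open point is PC-C-H animal 51, left out of the mean. The 3 PC-H animals sit between 942 and 1100.3, below the other 20 animals tested.

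Among the 20 animals outside PC-H that were tested, Tshz1 lay between 1404 and 2307, and the median was 1956. The highest PC-H animal was therefore below the lowest of the others, PR-C animal 25. Of the genes tested, 38 (0.287%) had every PC-H animal below each of the other 20, and 38 had every PC-H animal above them. The ratio of the lowest other animal to the highest PC-H animal was 1.28 for Tshz1, which ranked 1 of the 38 that were below. The PC-H values also chose the gene, so this place and rank are a description only. Animal 51, which is not among the 20, had 1238, so with it the ratio would be smaller.

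Only 8 of those 38 genes have a name here, and all the names come from the list for PC-C vs PC-H. Beside Tshz1, they are Zc3hav1, a zinc finger antiviral protein that binds RNA, with a ratio of 1.21, and Maml1, a coactivator of Notch signalling, with 1.11. Casp2, a caspase, and Fhip1b had ratios of 1.06. Fnbp4, Hars2, a mitochondrial histidyl-tRNA synthetase, and Gpd2, a mitochondrial glycerol-3-phosphate dehydrogenase, had PC-H animals just below the others, with ratios close to 1.

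The PC-H libraries differed from the rest in other ways, and those values are given here beside the low Tshz1. Animals 34 and 11 had the lowest median r with the other libraries among the animals tested, at 0.898 and 0.917. Animal 21 had 0.948, and the lowest outside PC-H was 0.937, in PC-C animal 13. On the first principal component, which held 25.1% of the variance, animals 11 and 34 had scores of −73.9 and −96.1, while animal 21 had a score of 5.01, inside the range of −58.4 to 49.3 of the other animals. Tshz1 was 942 in animal 11, 1088 in animal 34 and 1100.3 in animal 21. Whether these values depend on such differences between libraries was not tested. The summed normalized count of immune cell genes, of which 4 of 7 listed could be named, was 83.7 to 779 in PC-H and 11.3 to 60.7 in PC-C. All 4 were named through the list for PC-C vs PC-H, so their direction there is not independent.

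Immune sums of 93.1 to 133 were also reached in PR-C-C and of 97.5 to 116 in PC-C-C, where Tshz1 was 1429 to 2273. For mesenchymal genes, where 5 of 8 were named, the sum was 10543 to 13649 in PC-H and 13570 to 16080 in PC-C. Ltbp1 holds most of that sum and differed by −0.87 on the log2 scale, while Scx, Snai2, Medag and Olfml2b were all higher in PC-H, by 0.82 to 2.06, and the median of the 5 was 1.21. These 5 genes too were named through the contrast. The part of either cell type in the low Tshz1 of PC-H was not tested.

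In PR-C, Tshz1 was 2055 in animal 17, 1404 in animal 25 and 1651 in animal 36. In PR-H it was 2193 in animal 16, 1672 in animal 23 and 1817 in animal 31. The groups overlapped, with means of 1704 ± 329 and 1894 ± 269 (SD, n = 3 each), and the high fat mean was the higher one. The log2 difference was 0.16 with a standard error of 0.15 and a 95% interval of −0.15 to 0.47 (limma adjusted p = 1, exact two-sided permutation p = 0.4). Only 3 genes, 0.0227% of those tested, were called in this comparison.

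In PC-C-C, Tshz1 was 2075 in animal 52, 2128 in animal 54 and 2273 in animal 55. In PC-C-H it was 2005 in animal 50 and 2307 in animal 53. The control values lay between the high fat values, and the means of 2159 ± 103 (SD, n = 3) and 2156 ± 214 (SD, n = 2) gave a log2 difference of −0.00 with a standard error of 0.17 and a 95% interval of −0.35 to 0.34 (limma adjusted p = 1.00, exact permutation p = 1). A single gene, 0.00756% of those tested, was called here. Animal 51, at 1238, was below both other PC-C-H animals and above all 3 PC-H animals in normalized count. In CPM, animal 51 stood at 39.6, inside the PC-H range of 38.8 to 45.4. Its top 10 genes took 14.7% of its reads, against 6.83% to 8.74% in the other libraries, and CPM divides by that total. The paper left a PC-C-H sample out for its quality. With animal 51 the log2 difference was −0.27 (limma adjusted p = 0.727). Among the 18 libraries of the larger set, animal 52 again lay between animals 50 and 53.

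In PR-C-C, Tshz1 was 1898 in animal 41, 1680 in animal 47 and 1429 in animal 58. In PR-C-H it was 2046 in animal 43, 1673 in animal 46 and 2013 in animal 59. These groups overlapped, with means of 1669 ± 235 and 1910.5 ± 207 (SD, n = 3 each), and the log2 difference was 0.20 with a standard error of 0.15 and a 95% interval of −0.11 to 0.51 (limma adjusted p = 0.577, exact permutation p = 0.3). In this comparison 345 genes, 2.61% of those tested, were called. All 3 PR-C-C animals and none of the PR-C-H animals belong to the set of 6 libraries, so diet and that set cannot be told apart within this pair.

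Averaged over these 3 arms, the Tshz1 diet response was 0.12 on the log2 scale with a standard error of 0.09 and a 95% interval of −0.07 to 0.31 (limma adjusted p = 0.547), where 2.19% of genes were called. An exact permutation of the diet labels within arms, over 9 control and 8 high fat animals and 4000 arrangements, gave a two-sided p of 0.183, with 0.00025 the smallest it could give. With animal 51 this mean fell to 0.03 (limma adjusted p = 0.947). Because the PC-C vs PC-H difference chose the gene, the contrast between that response and the others was not tested. Mylip, a ligase that degrades the LDL receptor, rose with high fat chow by 1.48 to 1.88 on the log2 scale in these 3 arms (limma adjusted p between 0.000251 and 0.0188). The study had already named Mylip as raised in every diet comparison of these animals, so its p-values repeat that choice. With the term for the 6 libraries its F2 log2 differences were 1.75 and 2.02, no smaller than the 1.65 and 1.88 without it. They were then not called (limma adjusted p = 0.214 and 0.244). That term rests on PC-C-C animal 52 against 54 and 55, so the loss of these calls cannot be read as an effect of the set.

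**Figure D2:**
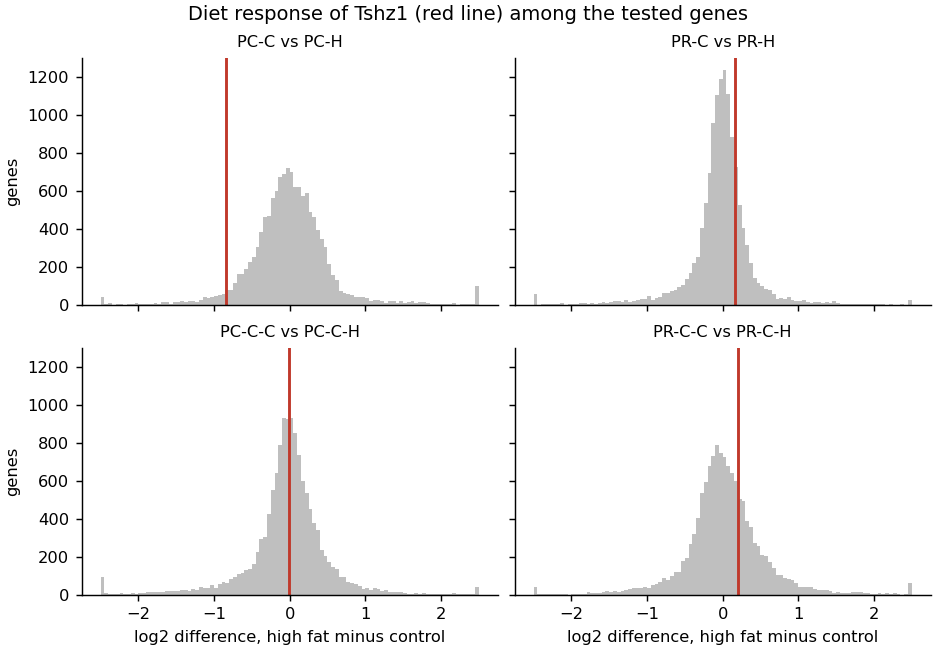
Number of genes (vertical axis) by log2 difference, high fat minus control (horizontal axis, bins of 0.05), for the 13224 genes tested in the 4 pairs of diet groups, with Tshz1 as a red line. Genes past 2.5 in size, 77 to 134 of them in each panel, are counted in the end bins. Between PC-C and PC-H, 4.76% of genes had a lower difference than Tshz1, and in the other pairs 50.2% to 76.7% did.

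The diet response of Tshz1 was also compared between arms that the choice of the gene had not used. Between generations of PR animals the response changed by 0.04 (standard error 0.21, 95% interval −0.40 to 0.48, limma adjusted p = 0.979), where 0.0756% of genes were called. Between F0 rations in F2 it was higher in PR than in PC by 0.20 (standard error 0.22, 95% interval −0.26 to 0.67, limma adjusted p = 1.00), and with animal 51 by 0.47 (limma adjusted p = 0.906). There limma called 0% of genes, with 349 genes at an unadjusted p under 0.05, while DESeq2 called 23 and edgeR 0. These intervals are wide, and neither difference was past the threshold.

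Food ration of the F0 dams was compared at matched diet and generation. On control chow in F2, PC-C-C animals had 2075 to 2273 and PR-C-C animals 1429 to 1898, so every PR-C-C animal was below every PC-C-C animal. The log2 difference was −0.38 with a standard error of 0.15 and a 95% interval of −0.69 to −0.07, and a mean 1.30-fold higher in PC-C-C. The unadjusted p was 0.0196, but over all genes the limma adjusted p was 0.982, and the exact permutation p was 0.1, the smallest that 3 animals against 3 allow. A lack of overlap was found for 10.8% of genes in this comparison, and limma called 0% of them (615 had an unadjusted p under 0.05, DESeq2 called 21 and edgeR 0). PC-C-C animals 54 and 55, which share the set of 6 libraries with PR-C-C, had 2128 and 2273 and were above all 3 PR-C-C animals too.

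On high fat chow in F2, PC-C-H and PR-C-H overlapped, with a log2 difference of −0.18, a standard error of 0.17 and a 95% interval of −0.53 to 0.17 (limma adjusted p = 1, exact permutation p = 0.6). For that comparison limma called 0% of genes, with 289 at an unadjusted p under 0.05, 16 called by DESeq2 and 0 by edgeR. With animal 51 the sign turned, to 0.09 (limma adjusted p = 0.895). In F1 the comparisons of ration hold the groups that chose the gene and are given without a test. PC-C and PR-C overlapped, with a log2 difference of −0.15, and PR-H lay above PC-H in every animal, with a log2 difference of 0.85, in a contrast where 14.3% of genes had no overlap.

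Between generations, PR-C and PR-C-C overlapped, and Tshz1 differed by −0.02 with a standard error of 0.15 and a 95% interval of −0.33 to 0.29 (limma adjusted p = 0.965, exact permutation p = 1), where 302 genes or 2.28% were called. The set of 6 libraries holds all of PR-C-C and none of PR-C, so generation and that set cannot be told apart in this pair. PR-H and PR-C-H differed by 0.02 with a 95% interval of −0.30 to 0.33 (limma adjusted p = 1, exact permutation p = 0.9). Here limma called 0% of genes, with 272 at an unadjusted p under 0.05, 9 called by DESeq2 and 0 by edgeR.

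For PC animals the generations are described without a test. PC-C-C lay above PC-C in every animal, by 0.21 on the log2 scale, as 12.2% of genes did not overlap in that contrast. PC-C-H lay above PC-H in both animals, by 1.05 on the log2 scale, and 29.1% of genes did not overlap there, with 3 animals against 2. With animal 51 the last difference was 0.78, and that animal was still above all of PC-H in normalized count, though not in CPM.

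**Figure D3:**
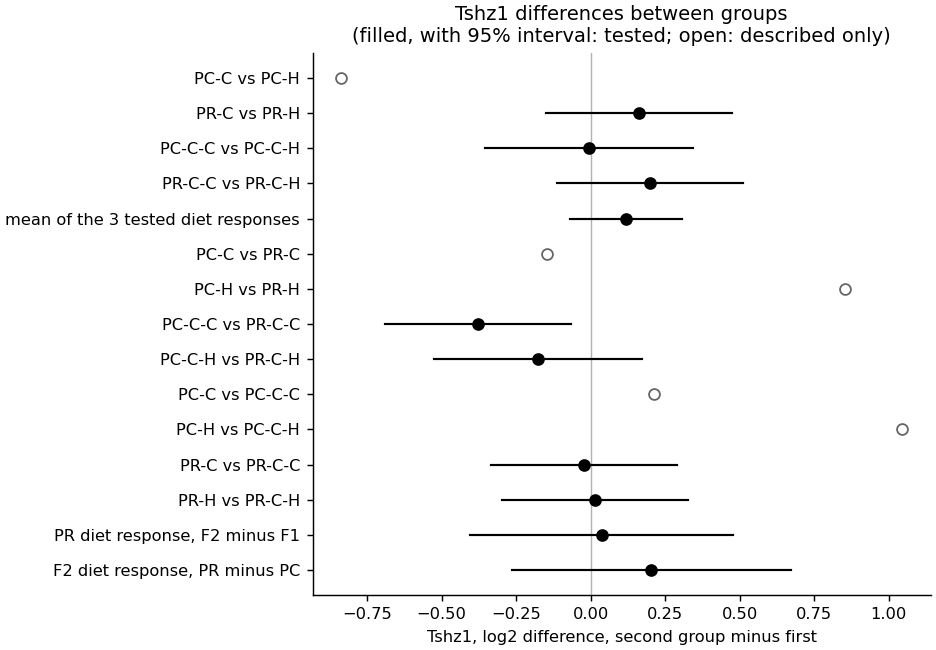
Log2 difference of Tshz1, second group minus first (horizontal axis), for each comparison and for the differences between diet responses. Filled points with a 95% interval were tested, and open points involve PC-C or PC-H and are descriptions. PC-C-C vs PR-C-C, at −0.38, has an interval below 0, and its limma adjusted p was 0.982.

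Ordered by mean, the groups ran PC-H, PR-C-C, PR-C, PC-C, PR-H, PR-C-H, PC-C-H and finally PC-C-C. PC-H and PR-C-C, neighbours in that order, were 625 normalized counts apart and did not overlap. PR-C-H and PC-C-H were 245 apart, more than the larger SD of 214, but their animals overlapped. All other neighbours overlapped and differed by less than the larger SD, with gaps between 2.78 and 163.

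Within groups, Tshz1 varied with an SD of 0.18 on the log2 scale over the 23 animals, and 27.8% of the 500 genes nearest to it in normalized count varied less. The coefficient of variation was lowest in PC-C-C, at 4.75%, and highest in PR-C, at 19.3%. It was 8.43% in PC-H and 8.31% in PC-C, both larger than the counting error. Outside PC-H the 15 males had 1404 to 2307 with a median of 1952, and the 5 females had 1673 to 2273 with a median of 2005. The set of 6 libraries had Tshz1 values of 1238 to 2273 with a median of 1789, against 942 to 2307 with a median of 1885 in the other 18, so the ranges overlapped.

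**Figure D4:**
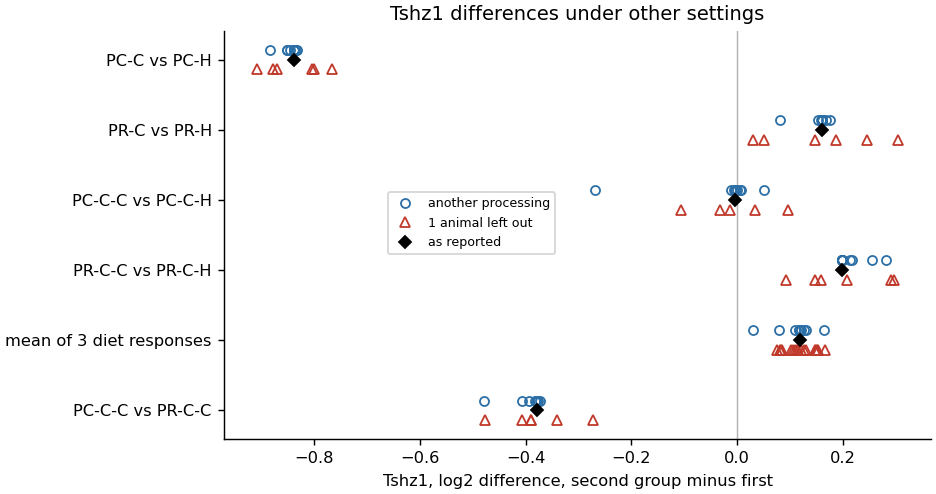
Log2 difference of Tshz1 (horizontal axis) in 6 comparisons as reported (diamonds), under each other processing (circles) and with 1 animal left out (triangles). PC-C vs PC-H stayed between −0.91 and −0.77. PC-C-C vs PC-C-H moved to −0.27 when animal 51 was included.

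Genes whose level followed that of Tshz1 over the 23 animals were ranked by Pearson's r of log2 values among 11229 genes with a mean of at least 50. The middle 90% of these genes had r between −0.56 and 0.57. All the points share their libraries, size factors and groups, and the 3 PC-H animals weigh heavily, so each r is also given over the 17 animals outside PC-C and PC-H. The highest was ENSCPOG00000010686, with r = 0.83, rho = 0.78 and r = 0.83 over the 17. Next came ENSCPOG00000003200, with r = 0.82 and 0.53 over the 17. With group means removed, r was 0.55 for ENSCPOG00000010686 and 0.59 for ENSCPOG00000003200.

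Of genes with a name the most alike was Zc3hav1, with r = 0.81, rho = 0.62 and r = 0.58 over the 17 animals. Zc3hav1 ranged from 1405 to 1672 in PC-H and from 2030.1 to 3131 in the other 20 animals, with no overlap, as for Tshz1. Gmeb2, which binds glucocorticoid modulatory elements, had r = 0.73, Akap11, an anchoring protein for protein kinase A, had r = 0.71, and Ltbp1, which binds latent TGF-beta, and the HMG box repressor Hbp1 had r = 0.68. Over the 17 animals these 4 had r between 0.26 and 0.41. With group means removed they had r between 0.13 and 0.44, and Zc3hav1 had 0.36.

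At the other end, Pla2g12a, a secreted phospholipase A2, had r = −0.79, rho = −0.55 and r = −0.71 over the 17 animals. Its normalized count was 1612 to 1624 in PC-H and 988 to 1632 in the other animals, so the ranges met. With group means removed its r with Tshz1 was −0.57. ENSCPOG00000035088 had r = −0.78, rho = −0.87, r = −0.79 over the 17 and r = −0.64 with group means removed. Prelid1, a carrier of phosphatidic acid in mitochondria, and Eif1ad had r = −0.76, the mitochondrial import chaperone Timm13 had −0.75 and the RNA-binding protein Rbm4 had −0.73. Over the 17 animals these had r between −0.53 and −0.39. With group means removed they had r between −0.17 and −0.03, so little of the relation was left within groups.

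**Figure D5:**
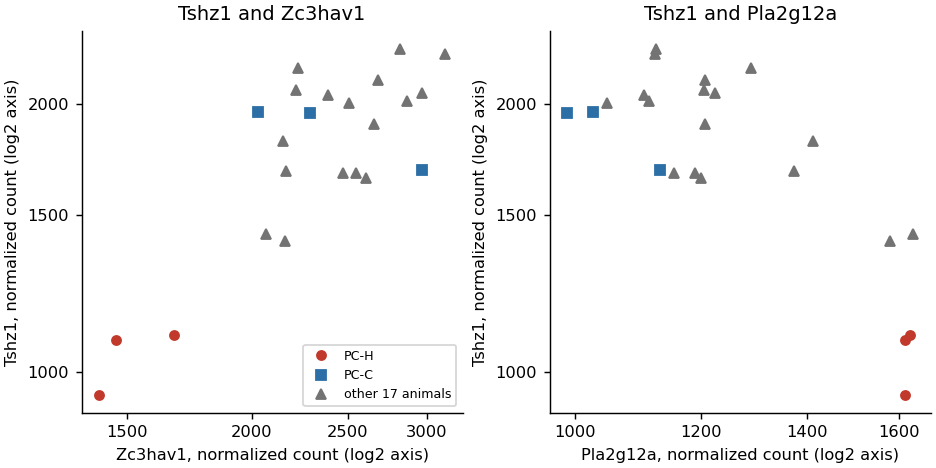
Normalized count of Tshz1 against Zc3hav1 (left) and Pla2g12a (right) in the 23 animals, on log2 axes, with PC-H as circles, PC-C as squares and the other 17 animals as triangles. PC-H animals hold the lowest values of both Tshz1 and Zc3hav1. Their Pla2g12a values, 1612 to 1624, are reached by other animals.

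Other regulators of transcription were taken from a list of 18, all named through the study's list of the PC-C vs PC-H contrast, and 17 of them passed the filter on low values. In PC-C vs PC-H, 9 were higher and 8 lower in PC-H, with a median log2 difference of 0.49, against −0.01 over all genes. The lower ones, with Tshz1, included the chromatin remodelling subunit Arid1b at −0.83, the DNA demethylation enzyme Tet2 at −0.93, the osmotic stress factor Nfat5 at −0.83 and Gmeb2 at −0.92. Nrf1, Rfx5, Hbp1 and Maml1 were lower by 0.54 to 0.61. Those values come from the contrast that selected the genes and were not tested.

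In the other 3 arms the median of the 17 regulators was 0.10, 0.24 and 0.09, against medians near 0 for all genes. Srebf1, which drives lipid synthesis genes, was the 1 regulator called, higher on high fat chow in PR-H (3.27, limma adjusted p = 0.0296) and in PR-C-H (3.6, limma adjusted p = 0.00172), and at 2.57 in PC-C-H (limma adjusted p = 0.258). The PR-C-H call was lost with the term for the 6 libraries, at 2.42 (limma adjusted p = 0.999). All of PR-C-C is in that set, so the term cannot separate the set from diet in this pair. The PR-H call was lost with animal 51 in the fit (limma adjusted p = 0.0512) and with edgeR (adjusted p = 0.0758). Between PC-C-C and PC-C-H, Srebf1 was called with DESeq2 (adjusted p = 0.0131) and with array weights (limma adjusted p = 0.00434). It was not called there with edgeR, with animal 51 or with the term for the 6 libraries. The study names Srebf1 among the genes raised in every diet comparison of these same animals, so these calls are not independent of it. No regulator was called lower by limma. The 8 regulators that were low with Tshz1 in PC-H had log2 differences from −0.40 to 0.46 in the other 3 arms, and 0 of them was called by limma, where 0.0227%, 0.00756% and 2.61% of all genes were, so the count is near the background.

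Of 6 zinc finger proteins in a second list, Zc3hav1 alone was lower in PC-H, at −0.67, and the median of the list was 0.53. All 6 were named through the study's list for PC-C vs PC-H, so their values in that contrast are not independent. Snai2, a repressor of epithelial genes, was the highest at 2.06, and Znf131, Znf706, Phf11 and Znhit6 were between 0.47 and 0.58. For the other 3 arms the list's medians were −0.06, 0.02 and −0.17, and limma called 0 of the 6, again near the shares of all genes called there (0.0227%, 0.00756% and 2.61%). Zc3hav1 differed by −0.17 in PR-C vs PR-H, 0.00 between PC-C-C and PC-C-H and 0.18 between PR-C-C and PR-C-H (limma adjusted p between 0.642 and 1).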

How the data were processed

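Polyadenylated RNA from 24 carotid endothelia was measured. Per the labels, reads were checked with FastQC, trimmed with Trimmomatic, aligned with STAR and analysed with DESeq2; versions, genome build, annotation and counting program are not given in the sources used here. The deposited signal values are normalized counts: divided by the smallest step of their column, 100% gave whole reads (tolerance 0.001), and recomputed size factors differed by at most 3.9e-15 in relative terms. How the authors treated reads shared between similar or overlapping genes is not known.

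Log2 values (pseudocount 1) of the 13224 genes whose mean over 23 animals reached 10 were fitted by limma 3.58.1 with its trend option and 8 group means (degrees of freedom: 15 residual, 5.17 prior) and Benjamini-Hochberg adjustment over genes at 0.05. Exact permutation tests were two-sided on log2 values. Tshz1, the gene lists and the settings were chosen with earlier results of these data known. Of the genes, 147 have a name, from a readable part of the study's list for PC-C vs PC-H, and 0 identifiers matched the reference table. Lists for teashirt partners, endothelial and smooth muscle markers had 0 members named. Named genes were Tshz1, list members, and the 5 highest and 5 lowest by likeness, over all genes and over named genes. The genes low in every PC-H animal and Mylip were added after their values were seen.

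Alternatives were DESeq2 1.42.0 and edgeR 4.0.16 on the recovered reads, limma after TMM or with a pseudocount of 0.1 or 10, no filter on low values, a fit of the compared groups alone, the groups without PC-C and PC-H, animal 51, sex, array weights, a term for the 6 and 18 libraries, and each animal left out. That term splits the libraries at the widest gap in the mean log2 of 125 genes higher minus that of 177 genes lower in PR-C-C than in PR-C. The methods were tested on simulated data. R 4.3.3 and matplotlib 3.10.9 were used.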

Additional observations from a re-analysis of the deposited data

How the results depend on the processing

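Each Tshz1 difference was computed again under 11 to 13 other settings and with each animal of its groups left out, 285 values in all. None brought a tested difference past the threshold, and the lowest adjusted p was 0.184, for PC-C-C vs PR-C-C with array weights. For PC-C vs PC-H the range was −0.88 to −0.83 over settings and −0.91 to −0.77 with an animal left out. Signs turned in 18 values. PC-C-C vs PC-C-H, −0.00, was 0.0067 with edgeR, 0.0055 with TMM and limma and 0.051 with the term for the 6 libraries. PC-C-H vs PR-C-H was 0.089 with animal 51, and PR-H vs PR-C-H was −0.071 with array weights. With animal 51, PC-H vs PC-C-H moved from 1.05 to 0.78, the mean of the 3 arms from 0.12 to 0.03 and the F2 difference between rations in diet response from 0.20 to 0.47. The cause of these changes was not tested.

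With an animal left out, the ranges were −0.11 to 0.10 for PC-C-C vs PC-C-H (higher than 0 without 50 or 55), −0.15 to 0.12 for PR-C vs PR-C-C (without 17 or 58), −0.069 to 0.13 for PR-H vs PR-C-H (below 0 without 23, 31, 43 or 59) and −0.11 to 0.17 for the change of the PR diet response with generation (below 0 without 17, 23, 43, 58 or 59). No sign turned in the other comparisons, among them 0.03 to 0.31 for PR-C vs PR-H, 0.09 to 0.30 for PR-C-C vs PR-C-H, 0.07 to 0.17 for the mean of the 3 arms, −0.48 to −0.27 for PC-C-C vs PR-C-C and 0.10 to 0.30 for the F2 difference in diet response. A lone PC-C-H animal is then assumed to vary like the other groups.

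Counts over all genes depended on the animals included, the weights and the tool. With the term for the 6 libraries limma called 0 genes between PR-C-C and PR-C-H (551 at an unadjusted p under 0.05), 0 in PR-C vs PR-C-C (410) and 4 for the mean of the 3 arms. The genes that define this term were themselves chosen by PR-C vs PR-C-C, so fewer calls there were built in. All of PR-C-C and none of PR-C or PR-C-H carry the term, and PC-C-C is the only tested group it divides. These lower counts therefore cannot show how far the calls depend on the set. With animal 51 the counts for the same 3 comparisons were 22, 18 and 15. With array weights they were 1766, 667 and 1739, with 647 between PC-C-C and PC-C-H. DESeq2 called 15 genes in PR-C vs PR-H (limma 3, edgeR 1), 48 between PC-C-C and PC-C-H (1 and 2), 682 between PR-C-C and PR-C-H (345 and 284), 664 for the mean of the 3 arms (290 and 237), 661 in PR-C vs PR-C-C (302 and 219) and 160 for the change with generation (10 and 4). No paired analysis was possible because the labels number the animals across the series and the groups share no number. Differences between animals, with 2 or 3 in a group, limit precision more than the counting error of at most 3.43%.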
